A study of Mus musculus with 15 samples.

Results

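The genes described here encode the eukaryotic translation initiation factors, the proteins that assemble a ribosome on a messenger RNA, with their paralogs, inhibitors and kinases. They were all genes whose symbol, taken from the RefSeq accession of the probe, begins with Eif and a number from 1 to 6. RefSeq holds 68 such symbols, of which 56 had a probe, all protein-coding, and the other 12 are 11 pseudogenes and 1 long non-coding RNA. Of the 56 genes 54 were measured above background on enough arrays to be tested, among 22552 genes and unnamed probes tested in all. The family was singled out because the group means of Eif4g1 followed the n-3 content of the diet in these same arrays, so the diet differences of Eif4g1 are given below as a description, without a test, and it is left out of every count of the family across diets.

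The RNA came from left hemibrains of male C57BL/6j mice that were put on 1 of 3 diets at 3 weeks of age and kept on it for 24 weeks. The sample titles of all 3 diets carry the word CONTROL. The enriched diet (ERD) had 7 parts of n-3 to 1 part of n-6 polyunsaturated fatty acids, the balanced diet (BLD) 1 part to 1, and the standard diet (STD) 1 part to 6, at equal caloric content. Each diet had 5 arrays with 1 hemibrain sample each, labelled with Cy5, against the same reference RNA in Cy3, a commercial pool made from 11 cell lines of the mouse. Every value is therefore a log2 ratio of hemibrain to reference for 1 probe, and the diets are compared through the reference. A hemibrain mixes many cell types, so fewer cells of a type and less RNA per cell cannot be told apart. Beyond the array and its diet the labels say nothing about litters or cages, and the p-values measure the spread between these arrays.

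Most messenger RNAs are translated after their 5′ cap is bound by the eIF4F complex, which consists of the cap-binding protein eIF4E, the scaffold eIF4G and the RNA helicase eIF4A. The eIF4E binding proteins compete with eIF4G for eIF4E until the kinase mTOR phosphorylates them. The small ribosomal subunit is recruited with eIF3, eIF1 and eIF1A and with the initiator tRNA that eIF2 carries, and eIF2 is recharged by eIF2B and shut down by kinases of its alpha subunit. In the brain this control is known for its part in long-lasting synaptic plasticity, and mutations of eIF2B cause a leukodystrophy in humans.

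The number of spots clearly above background in the hemibrain channel ranged from 17720 on ERD 1 to 31991 on BLD 4. ERD 1, BLD 3 and ERD 4 correlated least with the other arrays, with a median r across genes of 0.88 for ERD 1. The arrays came from 8 slides and were scanned on 2 days, and the later scan day held 1 ERD array, 3 BLD arrays and 0 STD arrays. Of 40 tested markers of brain cell types, choroid plexus and blood, 0 passed the limma test between any pair of diets, and 9 (22.5%) had an unadjusted p under 0.05 in ERD against STD, beside 14.6% of all genes. All 8 neuronal and all 6 oligodendrocyte markers, and 6 of 7 astrocyte markers, were higher in STD hemibrain than in the reference. The marker lists had median log2 differences of ERD against STD between -0.34 (choroid plexus) and 0.06 (blood). The mean of the neuronal markers relative to STD ran from -0.38 to 0.22 over ERD arrays, from -0.34 to 0.44 over BLD arrays and from -0.26 to 0.25 over STD arrays. For oligodendrocyte markers the ranges were -0.40 to -0.02 in ERD, -0.23 to 0.05 in BLD and -0.15 to 0.10 in STD, and the part of these markers in the results below was not tested.

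Between ERD and STD the family showed no common direction. Of the 53 tested factors other than Eif4g1, 27 lay above 0 and 26 below, with a median log2 change of 0.01 beside 0.02 for all genes tested. The transcript of Eif4ebp3, an inhibitor of the cap-binding protein, was the 1 factor that passed an adjusted p of 0.05 in limma with Benjamini-Hochberg adjustment over all genes (0.217% of all genes passed). Before adjustment, 10 of the 53 factors (18.9%) fell under a p of 0.05, 6 higher and 4 lower in ERD, against 14.6% of all genes. The 5 ERD arrays and the 5 STD arrays did not overlap in 3 factors (5.66%), Eif4ebp3, Eif6 and Eif4e, against 3.79% of all genes. Both shares rest on few factors and lay near those of all genes, and the difference was not tested. The call is 1 gene.

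**Figure D1:**
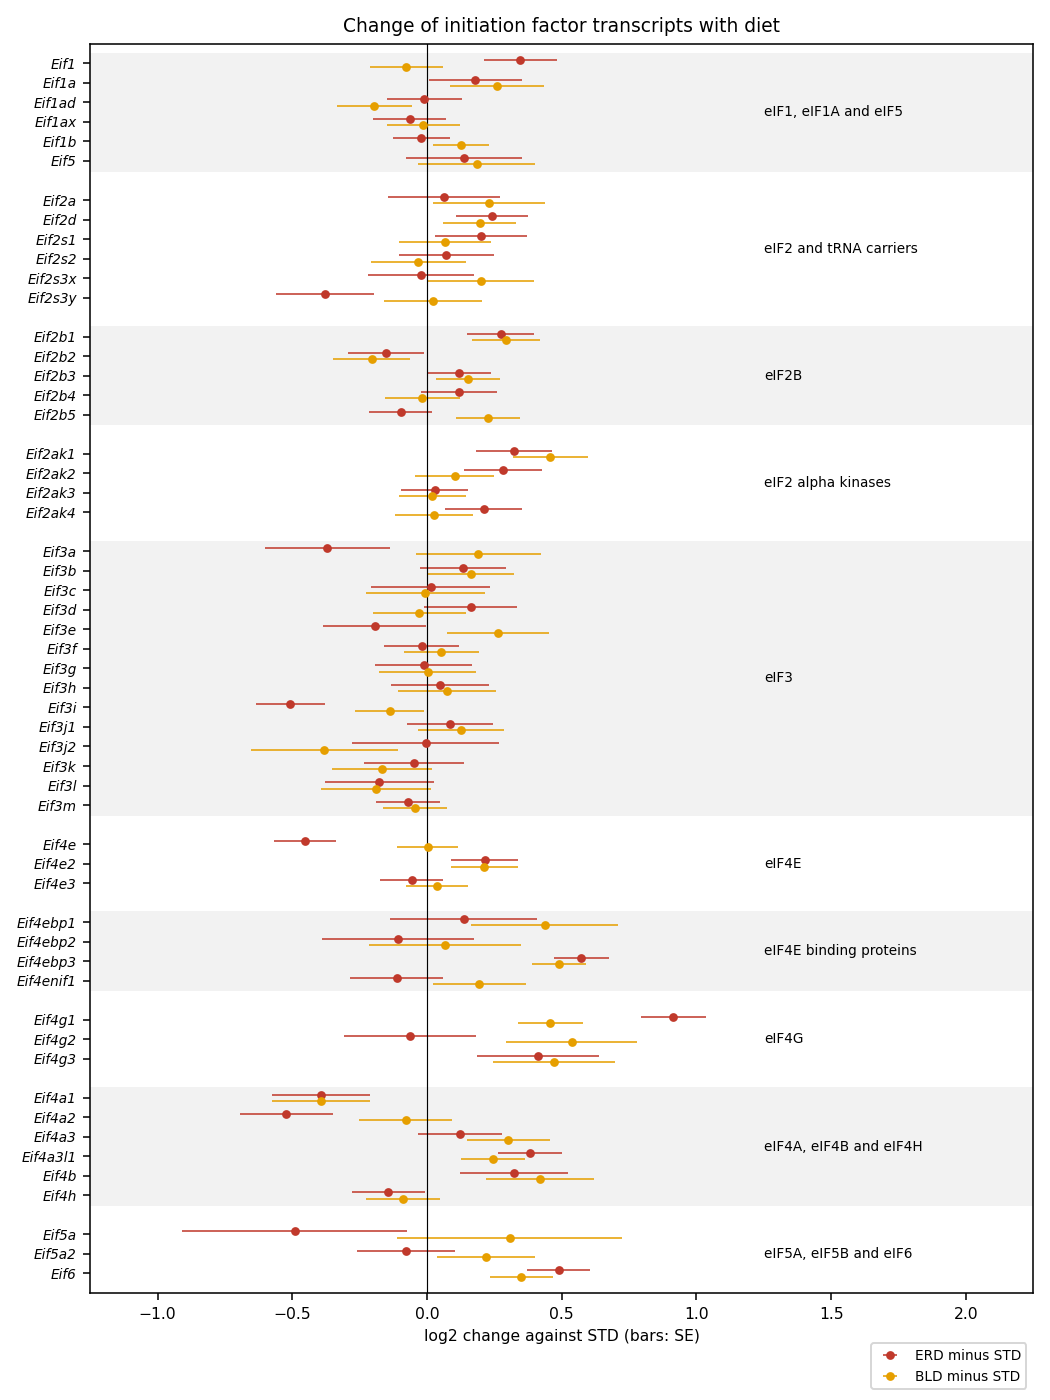
Log2 change of each tested initiation factor (rows, grouped by complex) in ERD (red) and BLD (orange) against STD, with standard errors as bars. Eif4g1 lies farthest to the right at 0.91 in ERD, and most other factors lie within 0.5 of 0 in both diets.

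Eif4g1 encodes the main scaffold of eIF4F, which joins the cap-binding protein, the helicase and eIF3. Its log2 ratios of hemibrain to reference were 0.61, 0.72, 0.52, 0.98 and 0.73 on the ERD arrays, 0.32, 0.39, 0.40, 0.24 and -0.07 on the BLD arrays, and -0.02, -0.19, -0.13, -0.23 and -0.43 on the STD arrays. All ERD values lay above all BLD and STD values, while BLD and STD overlapped through BLD 5. The means were 0.71 ± 0.17 in ERD, 0.26 ± 0.19 in BLD and -0.20 ± 0.15 in STD (SD, n = 5 each), which is 1.88-fold higher in ERD than in STD and a log2 difference of 0.46 in ERD against BLD. In Cy5 alone the difference of ERD against STD was 0.87, and in the reference channel it was 0.04. Slides that held arrays of both diets compared gave 0.91, 0.54 and 0.96 for ERD against STD, 0.16 for BLD against STD, and 0.59, 0.29 and 0.80 for ERD against BLD.

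In the ratios to the reference the paralogs of Eif4g1 did not share this order, and both had their highest mean in BLD. For Eif4g3 the order of ERD and BLD is unresolved, with a log2 difference of -0.06 (adjusted p = 0.951 in limma). In Cy5 alone this difference was 0.07, and the means of Eif4g3 had the order of Eif4g1. Eif4g3, a scaffold of the same kind that is also expressed in brain, had log2 ratios of 1.41, 1.51, 1.07, 1.56 and 2.18 in ERD, 1.96, 1.66, 1.13, 1.72 and 1.57 in BLD, and 1.27, 1.71, 1.03, 1.17 and 0.50 in STD. The diets overlapped, and the log2 change of ERD against STD was 0.41 ± 0.23 (SE, adjusted p = 0.409 in limma). A further probe of Eif4g3 gave -0.18, the opposite sign. Eif4g2, a scaffold that lacks the site for eIF4E and serves translation without a cap, had -1.80, -2.00, -2.01, -2.09 and -0.86 in ERD, -1.08, -1.24, -1.67, -1.22 and -0.56 in BLD, and -1.92, -1.20, -2.06, -1.56 and -1.71 in STD. ERD 5 stood far above the other ERD arrays, and the change of ERD against STD was -0.06 ± 0.24 (SE, adjusted p = 0.930 in limma).

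**Figure D2:**
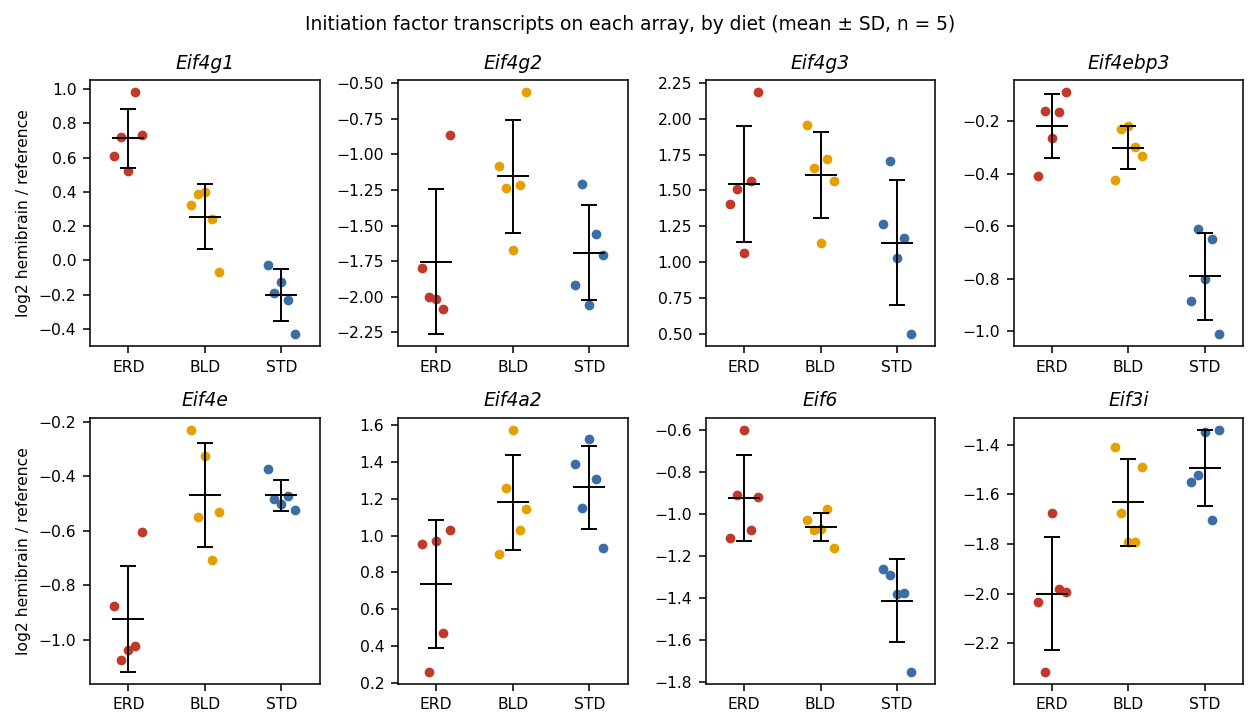
Log2 ratio of hemibrain to reference on each array for 8 initiation factors, by diet (ERD, BLD, STD from left to right), with the mean and SD of 5 arrays as black bars. Eif4g1, Eif4ebp3 and Eif6 have ERD arrays that all lie above the STD arrays, and Eif4e has ERD arrays that all lie below them.

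The start regions of the paralogs differ in a short motif. The RefSeq promoter windows, in build GRCm38.p6, of Eif4g1 and Eif4g3 and of the helicase pair Eif4a1 and Eif4a2 are shown. The family was chosen for Eif4g1, and by their tested probes the partners of each pair stood on opposite sides of the reference in STD hemibrain. The STD values of Eif4g1 were among those that chose the family. On all ERD arrays Eif4g1 lay above the reference, as did Eif4g3. A further probe of Eif4a2 was at -0.06, on the side of Eif4a1. Each window is the 250 bases before the annotated start, 5′ to 3′ on the strand of the gene, with the motif CACGTG in capitals. They lie at chr16:20672477-20672726 (plus strand, Eif4g1), chr4:137993205-137993454 (plus strand, the first of 2 starts of Eif4g3), chr11:69672424-69672673 (minus strand, Eif4a1) and chr16:23107218-23107467 (plus strand, Eif4a2).
Eif4g1: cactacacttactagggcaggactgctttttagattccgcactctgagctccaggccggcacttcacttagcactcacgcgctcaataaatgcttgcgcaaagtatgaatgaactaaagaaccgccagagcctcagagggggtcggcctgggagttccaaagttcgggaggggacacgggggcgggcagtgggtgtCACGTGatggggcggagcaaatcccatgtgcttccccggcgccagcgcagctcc
Eif4g3: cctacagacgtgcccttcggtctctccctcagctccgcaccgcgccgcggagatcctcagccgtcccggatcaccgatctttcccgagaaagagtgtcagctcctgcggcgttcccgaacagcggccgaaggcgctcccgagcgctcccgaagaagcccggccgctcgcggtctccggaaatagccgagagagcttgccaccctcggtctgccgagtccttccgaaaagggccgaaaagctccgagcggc
Eif4a1: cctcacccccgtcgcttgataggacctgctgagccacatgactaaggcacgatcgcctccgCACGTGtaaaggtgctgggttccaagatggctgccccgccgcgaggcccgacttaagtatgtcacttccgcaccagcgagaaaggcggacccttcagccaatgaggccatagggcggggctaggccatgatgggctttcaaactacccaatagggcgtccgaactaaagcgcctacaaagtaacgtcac
Eif4a2: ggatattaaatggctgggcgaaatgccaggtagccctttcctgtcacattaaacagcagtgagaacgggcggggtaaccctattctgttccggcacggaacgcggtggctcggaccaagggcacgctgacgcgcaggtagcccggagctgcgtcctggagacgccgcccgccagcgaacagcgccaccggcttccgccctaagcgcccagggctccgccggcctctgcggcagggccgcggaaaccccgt
CACGTG, which reads the same on both strands and is the core of the site bound by basic helix-loop-helix factors such as Myc, stood 54 bases before the start of Eif4g1 and 189 bases before that of Eif4a1. It was absent from the windows shown for Eif4g3 and Eif4a2. Promoter windows were found for 44 of the 56 genes, and 9 of the 44 (20.5%) held CACGTG in the 250 bases before a start, beside 6.86% of 27025 genes. The 9 were Eif1b, Eif3f, Eif3k, Eif4a1, Eif4e, Eif4g1, Eif4h, Eif5a and Eif5a2. Of the 8 other than Eif4g1, 8 had a log2 change of ERD against STD below 0, from -0.49 to -0.02, and 0 of them passed the test, while 52.9% of all genes lay above 0. This count depends on the channel and the probe, since in Cy5 alone 5 of the 8 lay below 0 and Eif1b, Eif3f and Eif5a2 above, and a further probe of Eif4e gave 0.18. In BLD against STD 5 of the 8 were above 0. This grouping was made with the values known. CCAAT, searched on both strands, occurred in 34.1% of the matched factors and 37.5% of all genes, and TGACGTCA, the full cyclic AMP response element, in 0 of the 44 factors and 1.77% of all genes. A match is only a match of letters.

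Among the proteins that hold eIF4E, Eif4ebp3 rose in ERD. This binding protein, encoded on chromosome 18, had log2 ratios of -0.41, -0.16, -0.26, -0.17 and -0.09 in ERD, -0.42, -0.23, -0.22, -0.30 and -0.33 in BLD, and -0.88, -0.61, -0.80, -0.65 and -1.01 in STD. Every ERD and every BLD array lay above every STD array. In ERD it was 1.49-fold higher than in STD (log2 0.57 ± 0.10, SE, adjusted p = 0.040 in limma), and in BLD 1.40-fold (log2 0.49 ± 0.10, adjusted p = 0.159 in limma, which did not pass). The difference between ERD and BLD was 0.08 (adjusted p = 0.810 in limma). In Cy5 alone the log2 change of ERD against STD was 0.50, and the reference channel differed by 0.02. For BLD against STD these values were 0.27 and -0.08, and for ERD against BLD 0.23 and 0.10.

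The call of Eif4ebp3 lay near its threshold. Leaving out 1 array at a time moved its log2 change of ERD against STD between 0.52 and 0.62 and its adjusted p in limma between 0.0225 and 0.135. The call was lost without ERD 2, 4 or 5, BLD 2 or 4, or any of the 5 STD arrays. Within the slides that held an ERD and an STD array the change was 0.45, 0.62 and 0.56, and on the slide with a BLD and an STD array 0.32. With slide as a fixed block it was 0.52 (adjusted p = 0.435 in limma), and with scan day as a fixed block 0.55 (adjusted p = 0.0587). The earlier scan day held all ERD and STD arrays but ERD 4, and without ERD 4 the change was 0.56.

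**Figure D3:**
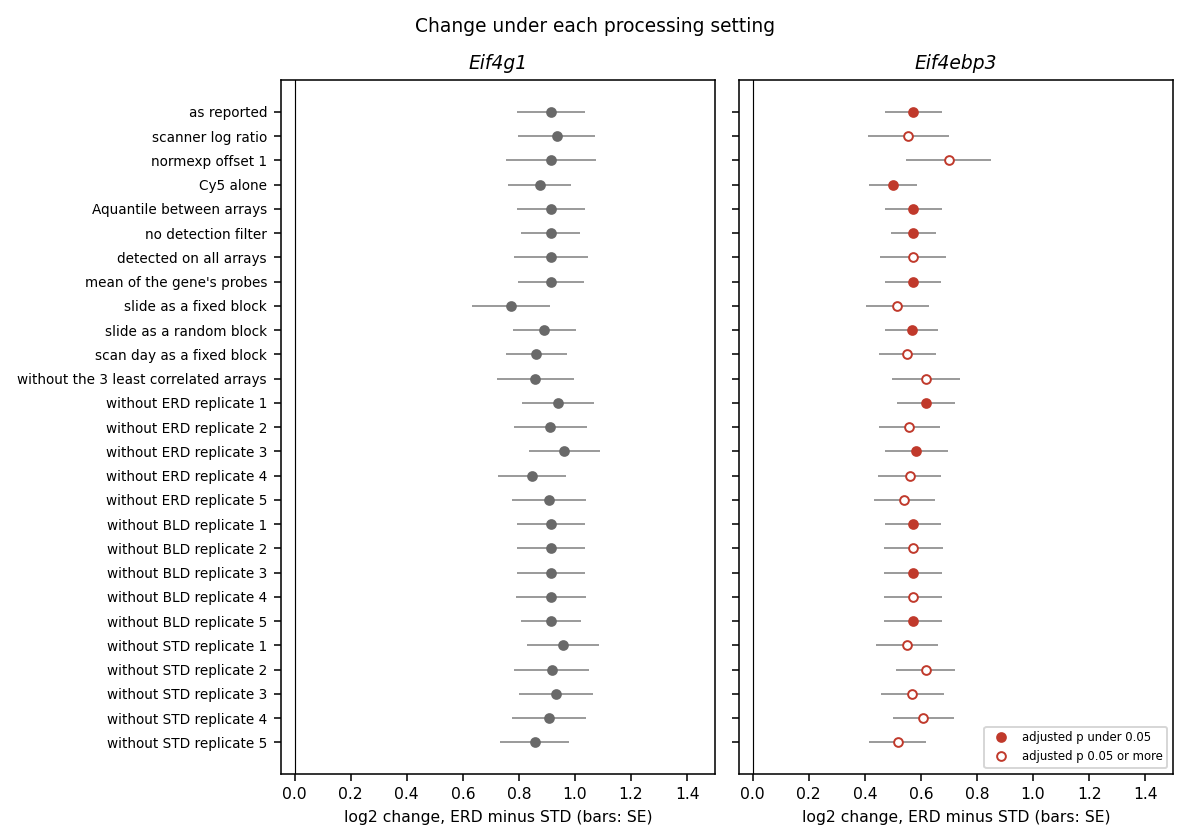
Log2 change of ERD against STD, with standard errors as bars, for Eif4g1 (left, no test shown) and Eif4ebp3 (right) under each processing setting or with 1 array left out. Eif4ebp3 stays between 0.50 and 0.70, and filled points mark settings in which its adjusted p was under 0.05.

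The other binding proteins gave no call. Eif4ebp1, the best known target of mTOR among them, had log2 ratios of -4.19, -4.86, -3.99, -4.19 and -4.69 in ERD, -4.23, -3.27, -4.49, -3.46 and -4.96 in BLD, and -4.56, -4.34, -4.78, -4.33 and -4.58 in STD. The diets overlapped (ERD against STD 0.14 ± 0.27, SE, adjusted p = 0.848 in limma), and its transcript was far below the reference on every array. Eif4ebp2, known as the main binding protein of the brain, had a change of -0.11 ± 0.28 (SE, adjusted p = 0.887 in limma) with a wide spread, from -1.08 to -0.13 in ERD, from -1.44 to 0.24 in BLD and from -0.89 to 0.13 in STD. Eif4enif1, which carries eIF4E into the nucleus, was at -0.11 ± 0.17 (SE, adjusted p = 0.791 in limma).

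Eif4e, the cap-binding protein itself, had log2 ratios of -0.88, -1.07, -1.04, -1.02 and -0.60 in ERD, -0.23, -0.55, -0.33, -0.71 and -0.53 in BLD, and -0.37, -0.48, -0.50, -0.47 and -0.52 in STD. All ERD arrays lay below all STD arrays, and ERD 5 alone lay above a BLD array. The log2 change was -0.45 ± 0.11 in ERD against STD (SE, adjusted p = 0.112 in limma) and 0.00 in BLD against STD, so it did not pass. A further probe of Eif4e gave 0.18 in ERD against STD, the opposite sign. The mean of both probes was -0.13 (adjusted p = 0.655 in limma). Eif4e2, a cap-binding protein that represses translation, was at 0.21 ± 0.13 (SE, adjusted p = 0.438 in limma), and Eif4e3 was at -0.06. Eif4e1b, known from oocytes, was above background on 1 of 15 arrays and was not tested.

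Of the 6 helicases and cofactors of the eIF4A, eIF4B and eIF4H group 0 passed between ERD and STD, 3 lay above 0 and 3 below. Eif4a2, the paralog enriched in brain, had log2 ratios of 0.95, 0.26, 0.97, 0.47 and 1.03 in ERD, 0.90, 1.26, 1.57, 1.03 and 1.14 in BLD, and 1.39, 1.15, 1.52, 1.31 and 0.93 in STD. The ERD arrays were the lower ones but overlapped with STD 5, and the change was -0.52 ± 0.17 (SE, adjusted p = 0.200 in limma). A further probe of Eif4a2 gave -0.68, the same sign. Eif4a1, the widely expressed helicase, was at -0.40 ± 0.18 in ERD against STD (SE, adjusted p = 0.331 in limma) and at -0.39 in BLD against STD. STD 5, at -1.22, lay well below the other STD arrays of Eif4a1, which ran from -0.46 to -0.07. Eif4a3l1, named in RefSeq for its likeness to the exon junction helicase Eif4a3, was at 0.38 ± 0.12 (SE, adjusted p = 0.180 in limma), beside 0.12 for Eif4a3. The helicase cofactors Eif4b and Eif4h were at 0.32 and -0.14.

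Eif6 encodes the factor that keeps the large ribosomal subunit from joining too early. It had log2 ratios of -1.11, -0.91, -0.60, -1.08 and -0.92 in ERD, -1.02, -1.07, -1.07, -0.97 and -1.16 in BLD, and -1.26, -1.29, -1.38, -1.37 and -1.75 in STD. Every ERD and BLD array lay above every STD array, and the change was 0.49 ± 0.12 in ERD (SE, adjusted p = 0.103 in limma) and 0.35 ± 0.12 in BLD (SE, adjusted p = 0.398 in limma), so neither passed. A further probe of Eif6 gave 0.36 in ERD and 0.26 in BLD. In Cy5 alone the tested probe of Eif6 changed by 0.40 in ERD and 0.09 in BLD against STD. In the reference channel these differences were -0.05 and -0.21. Eif5a, the hypusine-bearing factor of elongation and termination, had log2 ratios of -2.71, -2.62, -0.09, -0.74 and -0.96 in ERD, -0.39, -0.49, -1.28, -0.26 and -0.70 in BLD, and -1.20, -0.95, -1.07, -0.97 and -0.47 in STD. ERD 1 and ERD 2 were far below all other arrays, which gave the ERD group an SD of 1.18 and a change of -0.49 ± 0.42 (SE, adjusted p = 0.599 in limma). Its paralog Eif5a2 was at -0.08. Eif5b, the GTPase of subunit joining, was above background on 1 of 15 arrays and was not tested.

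Of the 14 tested eIF3 genes, which encode the large complex that bridges mRNA and the small subunit, 0 passed between ERD and STD, 5 lay above 0 and 9 below, and the median was -0.02. Eif3i, a subunit of its periphery, had log2 ratios of -2.03, -2.31, -1.67, -1.98 and -2.00 in ERD, -1.41, -1.67, -1.79, -1.79 and -1.49 in BLD, and -1.55, -1.52, -1.35, -1.70 and -1.34 in STD. ERD 3 was the 1 ERD array that overlapped with STD, and the change was -0.51 ± 0.13 (SE, adjusted p = 0.109 in limma). Without ERD 3 it was -0.59 (adjusted p = 0.0451 in limma). Eif3a, the largest subunit, was at -0.37 ± 0.23 (SE, adjusted p = 0.471 in limma). Its change ran from -1.24 to -0.20 under other processing settings or with 1 array left out, and it was not above background on every array. The other 12 subunits lay between -0.19 (Eif3e) and 0.16 (Eif3d).

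Factors of start codon selection and of eIF2 gave 0 calls between ERD and STD. Eif1, which guards the choice of the start codon, had log2 ratios of 1.81, 1.10, 1.13, 1.28 and 1.40 in ERD, 0.63, 1.06, 1.07, 0.87 and 0.98 in BLD, and 0.88, 0.99, 1.06, 1.16 and 0.90 in STD. All ERD arrays lay above all BLD arrays, and the change was 0.35 ± 0.14 in ERD against STD (SE, adjusted p = 0.264 in limma) and 0.42 in ERD against BLD (adjusted p = 0.368 in limma). A further probe of Eif1 gave 0.03 and -0.12 for the same comparisons. Eif1a, which scans with Eif1, was at 0.18 ± 0.17 in ERD against STD (SE, adjusted p = 0.651 in limma).

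The subunits of eIF2 and the other carriers of initiator tRNA ranged from -0.38 to 0.24 in ERD against STD. The lowest was Eif2s3y, the Y-linked copy of the gamma subunit, with 0.77 ± 0.34 in ERD, 1.17 ± 0.24 in BLD and 1.15 ± 0.31 in STD (SD, n = 5 each, adjusted p = 0.350 for ERD against STD in limma). The highest was Eif2d, a carrier that needs no GTP. Of the eIF2B subunits, Eif2b1 was at 0.27 ± 0.13 (SE, adjusted p = 0.332 in limma) and Eif2b2 at -0.15 ± 0.14 (SE, adjusted p = 0.636 in limma). All 4 kinases of eIF2 alpha had a change of ERD against STD above 0, as did 52.9% of all genes, and 0 passed. This depends on the channel. In Cy5 alone Eif2ak1 was at 0.18 and Eif2ak4 at 0.11, but Eif2ak2 at -0.02 and Eif2ak3 at -0.15. Eif2ak1, the kinase that senses heme, had log2 ratios of -0.02, 0.62, 0.61, 0.46 and 0.22 in ERD, 0.62, 0.47, 0.52, 0.73 and 0.22 in BLD, and 0.04, 0.24, -0.23, 0.12 and 0.10 in STD. Its change was 0.32 ± 0.14 in ERD (SE, adjusted p = 0.311 in limma) and 0.46 in BLD (adjusted p = 0.369 in limma). Eif2ak2, which senses double-stranded RNA, was at 0.28 ± 0.15 in ERD (SE, adjusted p = 0.383 in limma), Eif2ak4, which senses lack of amino acids, at 0.21, and Eif2ak3, which senses unfolded proteins, at 0.03.

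Between BLD and STD, 0 of the 53 factors passed in limma (0.00887% of all genes did), and before adjustment 6 (11.3%) fell under a p of 0.05, beside 10.8% of all genes. Of the 53, 37 lay above 0 (69.8%), beside 60.6% of all genes, and the median was 0.10 beside 0.05 for all genes. This lean depends on the channel, since in Cy5 alone the median of the factors was 0.014. The 4 tested blood markers all lay above 0 in BLD against STD, with a median of 0.32 and 0 past the test. Relative to STD their mean was 0.85, 0.42, 0.85, 0.21 and -0.25 on the BLD arrays, against -0.13 to 0.16 on the STD arrays, and their part in the values of the factors was not tested. The arrays did not overlap in 2 factors, Eif4ebp3 and Eif6 (2.89% of all genes). Between ERD and BLD, 0 of 53 passed in limma (0% of all genes), and before adjustment 9 (17.0%) fell under a p of 0.05, 1 higher and 8 lower in ERD, beside 10.4% of all genes. At that p 593 of all genes were higher and 1746 lower in ERD. Of all genes 41.9% lay above 0, beside 35.8% of the factors. The median was -0.04, the same as for all genes, and the arrays did not overlap in 1 factor, Eif1 (1.37% of all genes). These comparisons share their arrays with that of ERD and STD.

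A stepwise order of the group means, highest in ERD and lowest in STD, was found in 9 of the 53 factors (17.0%), beside 19.1% of all genes. They were Eif2ak2, Eif2ak3, Eif2ak4, Eif2d, Eif2s1, Eif4a3l1, Eif4e2, Eif4ebp3 and Eif6, and only Eif4ebp3 among them passed the test between any pair of diets. The opposite order was found in 6 factors (11.3%), beside 16.6% of all genes. Among the 9, some steps were near 0, with ERD against BLD at 0.0014 for Eif4e2, 0.05 for Eif2d and 0.08 for Eif4ebp3. In Cy5 alone Eif2ak2 and Eif2ak3 were lower in ERD than in STD. Eif2ak4, Eif2s1 and Eif4e2 were lower in BLD than in STD there, at -0.13, -0.0043 and -0.03. Of these factors only Eif2d, Eif4a3l1, Eif4ebp3 and Eif6 kept the order in Cy5 alone. The stepwise order of Eif4g1 was no more frequent in the rest of its family than in all genes.

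Set against the reference pool of cell lines, most initiation factor transcripts were low in hemibrain. On the STD arrays 37 of the 53 factors were lower in hemibrain than in the reference (32.3% of all genes were), 8 were higher (38.8% of all genes), and 8 did not pass an adjusted p of 0.05 in limma. The median log2 ratio was -0.88, beside 0.09 for all genes. The dyes were not swapped, so a dye effect of a probe is part of this ratio.

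The factors higher in hemibrain included several paralogs and the Y-linked copy of eIF2 gamma. Eif1b, a paralog of Eif1, had the highest ratio, 3.21-fold (log2 1.68 ± 0.11, SD, n = 5, adjusted p = 7.8e-12 in limma). Eif4a2 was 2.40-fold higher, Eif5a2 2.31-fold, Eif2s3y 2.22-fold and Eif4g3 2.20-fold. Eif1 was higher by 1.00, and Eif4h and Eif3k were higher by 0.34 and 0.32 on the log2 scale. However, a further probe of Eif1, of Eif3k and of Eif4a2 lay below the reference, at -0.46, -0.72 and -0.06. A further probe of Eif4g3 was at 0.43, beside 1.13 for its tested probe. Widely expressed partners of some of the higher factors lay below the reference, with Eif4a1 at -0.52 and Eif5a at -0.93. Eif4g1 was at -0.20, but its STD values were among those that chose the family, and its ERD arrays all lay above the reference. The X-linked Eif2s3x was at -0.04 (adjusted p = 0.825 in limma), and a further probe of Eif2s3x was at -0.87. The lowest ratios were those of Eif4ebp1 (-4.52 ± 0.19), Eif3e (-3.11 ± 0.24) and Eif1ax (-2.48 ± 0.21, SD, n = 5 each). Of the eIF3 genes 12 of 14 were lower in hemibrain, Eif3k was higher and Eif3j2 at 0.24 did not pass. Of the eIF2B genes 4 of 5 were lower, and of the eIF2 alpha kinases 3 of 4.

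**Figure D4:**
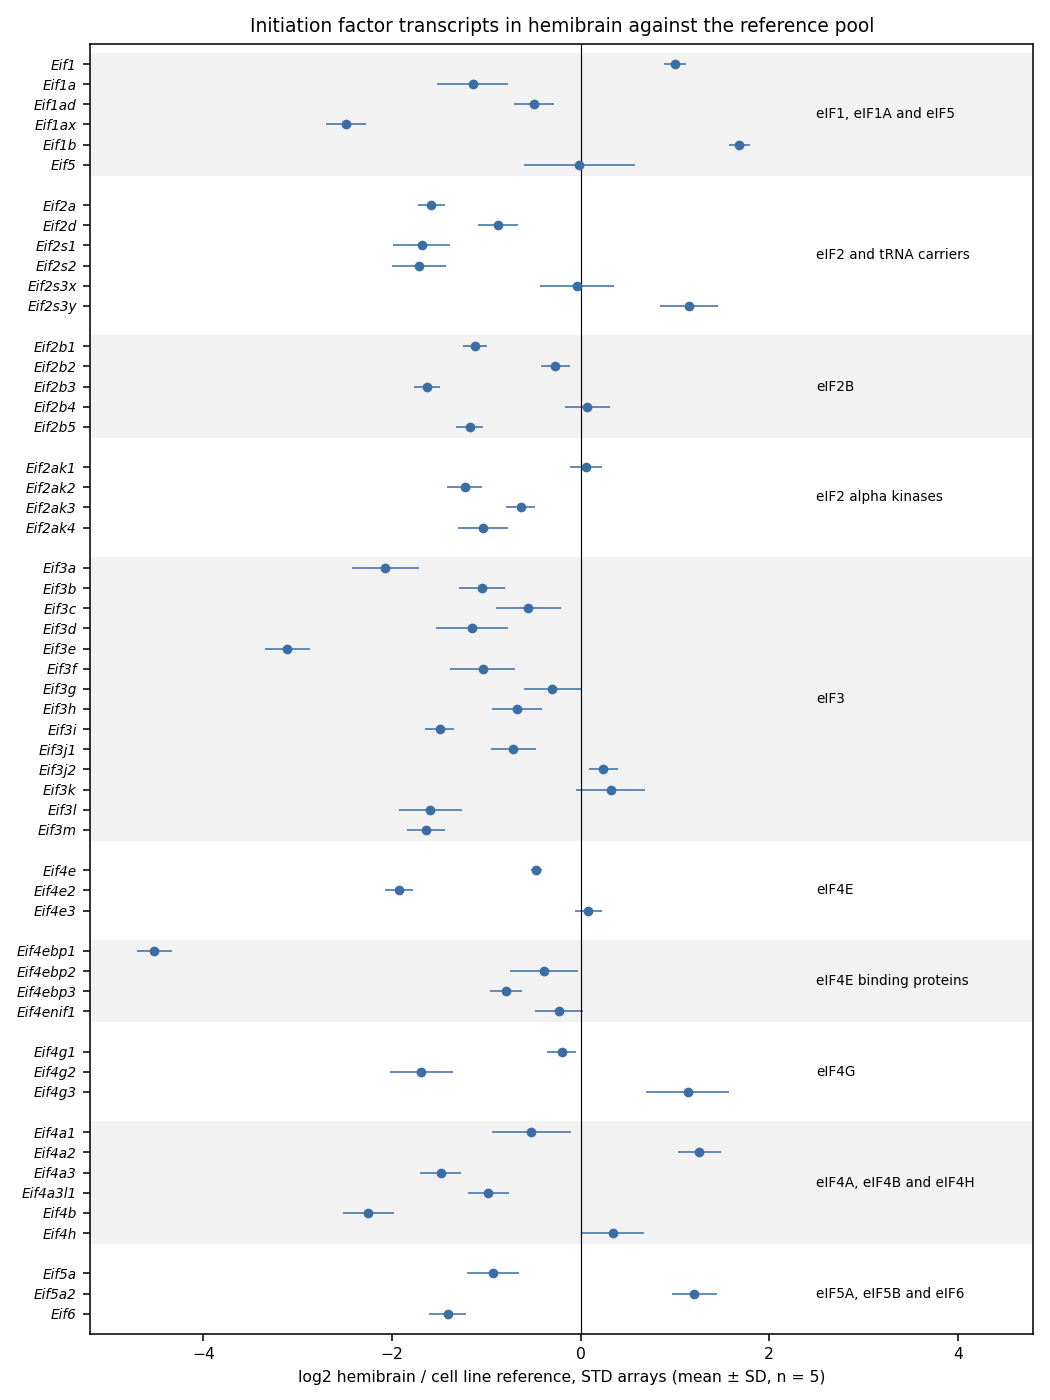
Log2 ratio of STD hemibrain to the cell line reference for each tested initiation factor (rows, grouped by complex), as the mean and SD of 5 arrays. Most points lie left of 0, with Eif4ebp1 at -4.52, and Eif1b lies farthest right at 1.68.

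Further probes of a gene sometimes gave another value. Of the 54 tested genes 18 had further detected probes, 20 in all, and 5 of the 20 had a hemibrain to reference ratio of the opposite sign to that of the brightest probe. They belonged to Eif1 (1.00 and -0.46), Eif3k (0.32 and -0.72), Eif4a2 (1.26 and -0.06), Eif4e (-0.47 and 0.40) and Eif4e2 (-1.93 and 0.13), with the brightest probe first. For the change of ERD against STD 7 of the 20 had the opposite sign. Eif4ebp3 and Eif4g1 had no further detected probe.

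Other genes of the pathway did not pass between diets. Of 28 regulators of initiation, 0 passed between ERD and STD, 12 lay above 0 and 16 below, and the median log2 change was -0.06. The lowest p-values belonged to Impact, a neuronal inhibitor of the activation of Eif2ak4 (-0.51 ± 0.16, SE, adjusted p = 0.191 in limma), and to Paip2b, an inhibitor of the poly(A) binding protein (-0.47 ± 0.20, SE, adjusted p = 0.302 in limma). Of 11 elongation and release factors 0 passed, 4 lay above 0 and 7 below, and the median was -0.12. Eef2k, the kinase that slows elongation, was at 0.24 ± 0.09 (SE, adjusted p = 0.240 in limma), and Eef1a2, the elongation factor of neurons and muscle, at -0.97 ± 0.44 (SE, adjusted p = 0.322 in limma).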

How the data were processed

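Hemibrain RNA of 15 mice on 3 diets was measured on 2-colour Agilent arrays, 5 per diet. The deposited scanner files hold spot intensities, and the deposited table of values holds log10 ratios of Cy5 over Cy3, equal to the scanner's log10 ratios within 5e-10. Trizol-extracted total RNA went through a 2-colour amplification kit, per the labels' protocols. Quantification used Agilent Feature Extraction, in version 11.5.1.1 according to the file headers and in version 10.7 per the submitters' processing notes.

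Median intensities were background-corrected (normexp, offset 50) and loess-normalized within arrays in limma 3.58.1 under R 4.3.3 with data.table (version 1.17.8). Outlier spots (0.574%) were left out, and spots of a probe averaged. Of 55681 probes 27656 were given a symbol through RefSeq. Each symbol was represented by the probe of highest mean processed Cy5 signal. Probes that the scanner software marked as well above background in the hemibrain channel of 5 or more of the 15 arrays, with 8 or more values, were kept, which gave 22552 tested features, 13758 with a symbol and 8794 without. A limma fit of the 3 group means, with 12 residual degrees of freedom, gave 2-sided p-values, adjusted by Benjamini-Hochberg over all features. Between diets the median standard error over the factors was 0.16, and the number of arrays limits the precision. On simulated data for ERD against STD (22552 features, 50 changed per size), log2 changes of 0.5, 1, 1.5 and 2 were recovered in 26%, 74%, 92% and 98%. Figures were drawn with Python 3.11.15, pandas 2.3.3 and matplotlib 3.10.9.

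The members and the gene lists were chosen with earlier results of these data known. The 28 factors named by rule were Eif4g1, factors past the threshold, up to 2 of lowest p per complex, the core of eIF4F and its inhibitors, and the 3 highest and 3 lowest ratios to the reference. Other factors were named after their values were seen. Alternatives were other background and dye corrections, Cy5 alone, other filters and probe summaries, slide and scan day as blocks, and arrays left out. Replicate numbers were given in accession order. The methylation and microRNA data of the study were not used here.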

Additional observations from a re-analysis of the deposited data

Results flagged for a closer look

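In 9 of 162 combinations of a factor and a diet, 1 array lay far from the other 4, where chance flags about 1 in 20. On STD 5, Eif2s1 (-2.21), Eif3c (-1.15), Eif3d (-1.80) and Eif6 (-1.75) were below the other STD arrays, and Eif1ad (-0.12) and Eif3f (-0.43) above them, as log2 ratios to the reference. The other STD arrays of Eif6 ran from -1.38 to -1.26. Eif2ak2 was low on STD 2 (-1.55), Eif2s2 was high on ERD 1 (-1.06), and Eif4g2 was high on ERD 5 (-0.86).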

How the results depend on the processing

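Each result was recomputed under up to 26 other settings, 15 of which left out 1 array. The count of factors other than Eif4g1 past the threshold in ERD against STD was 1 and became 0 with the scanner's own log ratios, with a normexp offset of 1, with probes detected on all arrays, with slide or scan day as a fixed block, and without the 3 least correlated arrays. Leaving out 1 array gave 0 to 2, with Eif3i joining Eif4ebp3 without ERD 3. The median log2 change of the factors in ERD against STD, 0.01, was -0.052 with the scanner's log ratios, and from -0.0026 to 0.085 with 1 array left out. It reached 0.085 without ERD 4 and 0.062 without STD 1. The median of ERD against BLD, -0.04, was -0.0064 in Cy5 alone and -0.070 with scan day as a block. The median of BLD against STD, 0.10, ran from 0.014 in Cy5 alone to 0.147. The count of BLD against STD calls was 0 in every setting, and the count of factors that differed from the reference, 45 as reported, was 43 to 46 with 1 array left out. Over all 22 settings in which it was computed it was 41 to 46, with 7 to 11 higher and 33 to 38 lower. Of 81 results on named factors other than Eif4g1, 79 did not change their call. The exceptions were Eif4ebp3 in ERD against STD, whose change stayed between 0.50 and 0.70 but whose call was lost in 16 settings, and Eif3i without ERD 3. The described difference of Eif4g1 in ERD against STD ran from 0.77 (slide as a fixed block) to 0.96. The cause was not tested. Scaling the mean brightness between arrays leaves the ratios as they are and so changed nothing. No paired analysis was possible because the labels carry no replicate numbers that could match animals, while arrays that share a slide were compared within slides and with slide as a block. The 2 factors below background, Eif4e1b and Eif5b, limit what can be said of those steps.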
